A study of Rattus norvegicus with 7 samples.

Results

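Transcripts of 10 mast cell genes were examined in rat lung: the granule proteases Mcpt10, Mcpt2, Cma1, Tpsab1, Tpsb2 and Cpa3, the receptors Kit, Fcer1a and Ms4a2, and the histamine-forming enzyme Hdc. Members were the probe sets that the platform annotation gives to a single gene symbol on this list. There were 10 such probe sets, for 9 of the 10 genes, out of 31042 probe sets and 14217 singly annotated genes, and no probe set carried Mcpt2 as its only symbol. Total RNA came from the right lung, perfused with saline, of rats of the Dahl Salt Sensitive line, an inbred strain that becomes hypertensive on salt. The 4 HSU_Sor arrays came from rats that received hypoxia (inspired oxygen about 9.5%), SU-5416, which blocks VEGF receptors, and sorafenib. Sorafenib is an inhibitor of RAF kinases and of several receptor tyrosine kinases. The 3 HSU arrays came from rats that received hypoxia and SU-5416 alone. Lungs were taken at 3.5 weeks. Hypoxia with SU-5416 models pulmonary arterial hypertension in rats, and no array without hypoxia and SU-5416 was analysed here. The labels do not say outright that each array came from its own rat, so p-values measure the spread between these arrays.

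Mast cells are tissue-resident immune cells that store proteases, histamine and proteoglycan in granules and release them when antigen cross-links IgE on the high-affinity receptor. They grow and survive on stem cell factor, which binds Kit, and Kit is among the kinases that sorafenib inhibits. Kit activity was not measured here under SU-5416, with or without sorafenib. In rats, mucosal and connective tissue mast cells carry different protease sets, and in lung both lie around airways and vessels. In whole-lung RNA, fewer mast cells and less RNA per mast cell cannot be told apart.

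Values are log2 expression, normalized across arrays by the authors, so a step of 1 is a doubling. The array medians lay between 3.59 and 3.68. Probe sets whose mean over the 7 arrays did not exceed 3.64, the median of these means, were not tested. Low values of this kind are called near the floor here, and differences there can be compressed. The median SD over the 7 arrays was 0.02 for probe sets not tested and 0.15 for those tested. The cut is not a measured floor, since the untested cardiac marker Tnnt2 ran from 3.00 to 5.00. The alveolar type II marker Sftpc was between 15.39 and 15.54 on every array. HSU 1b and 2b stood apart at 1 probe set of the MHC gene RT1-Bb, at 12.57 on both, while HSU_Sor arrays were between 3.55 and 3.72 and HSU 3b was at 3.64. Every HSU title carries the letter b after its number and no HSU_Sor title does, so a batch marked by that letter and sorafenib cannot be told apart.

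Of the granule proteases among the members, Mcpt10 and Cpa3 had lower levels in HSU_Sor lungs, while Cma1, Tpsab1 and Tpsb2 were near the floor and untested. The receptor Kit differed by less than its SE, and both IgE receptor chains were near the floor too. Mcpt10 was 5.36-fold lower and Cpa3 1.67-fold lower in HSU_Sor, and for both genes the groups were fully separated. Neither passed after adjustment. Of the 4 members tested, 0 had an adjusted p below 0.05 (limma, Benjamini-Hochberg over 15521 probe sets), as did 0% of all probe sets tested, and the lowest adjusted p over all of them was 0.15. At an unadjusted p below 0.05, 2 of the 4 were lower in HSU_Sor against a background of 3.67% of all probe sets tested, and 0 were higher against 2.33%. Groups did not overlap, with HSU_Sor lower, for the same 2 members, against 3.25% of all probe sets tested (2.01% had HSU_Sor higher, 5.26% either way). The median log2 difference was -0.45 over the 4 tested members and -0.01 over all probe sets tested. The 4 are those that cleared the filter, not the whole list. The list was chosen with earlier results of these data known, so the shares and medians set side by side here are a description only.

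**Figure D1:**
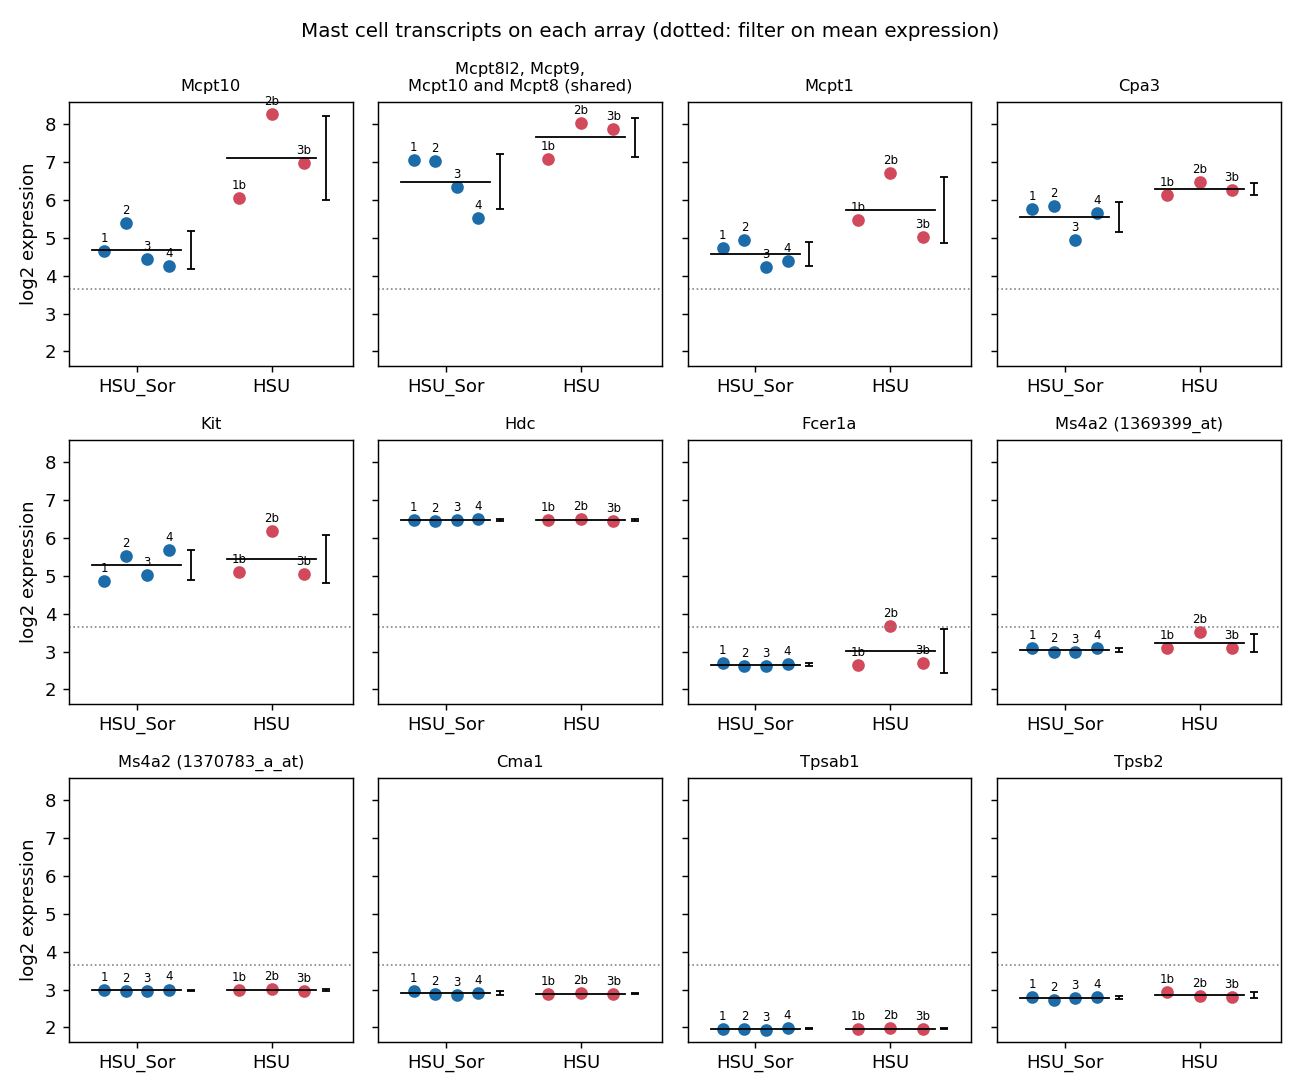
Log2 expression of each member probe set, of the probe set shared by Mcpt8l2, Mcpt9, Mcpt10 and Mcpt8, and of Mcpt1, on the 4 HSU_Sor and 3 HSU arrays. Points are arrays labelled by replicate, horizontal lines are group means, bars are SDs and the dotted line is the filter at 3.64. Mcpt10, Cpa3, Mcpt1 and the shared probe set have all HSU_Sor points below all HSU points, while Hdc, Cma1, Tpsab1, Tpsb2 and the dimmer Ms4a2 probe set vary little.

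Mcpt10 encodes a serine protease of rat mast cell granules and belongs to a rat subfamily with Mcpt8 and Mcpt9. It was at 4.65, 5.39, 4.43 and 4.25 on HSU_Sor arrays 1 to 4 and at 6.05, 8.27 and 6.98 on HSU arrays 1b, 2b and 3b. The groups did not overlap, and the HSU arrays were more widely spread (SD 1.11, n = 3) than the HSU_Sor arrays (SD 0.50, n = 4). The log2 difference was -2.42 ± 0.54 (SE), with an unadjusted limma p of 0.00351 and an adjusted p of 0.574. Among the 15521 probe sets tested, 16 had a more negative difference and 94 a smaller p. A two-sided exact permutation test gave p = 0.0571, and groups of 4 and 3 allow none smaller. HSU 2b was the highest array, and without it the difference was -1.84. Without both HSU arrays that stood apart at 1 RT1-Bb probe set, which leaves 1 HSU array, it was -2.30.

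A further probe set is annotated to Mcpt8l2, Mcpt9, Mcpt10 and Mcpt8 together and so names no single gene. It read 7.05, 7.02, 6.33 and 5.51 on the HSU_Sor arrays and 7.07, 8.04 and 7.86 on the HSU arrays. Its groups did not overlap, although HSU_Sor 1 and HSU 1b differed by less than the spread within either group. The log2 difference was -1.18 ± 0.44 (SE), with an unadjusted limma p of 0.0339 and an adjusted p of 0.812, and it was -0.62 without HSU_Sor 3 and 4. The unadjusted limma p was 0.111 without HSU 2b, 0.0968 without HSU 3b and 0.0751 without HSU_Sor 3. The probe set of Mcpt8 alone stayed near the floor, at 3.17 to 3.26 in HSU_Sor and 3.21 to 3.27 in HSU. That of Mcpt9 alone was at 3.71 to 4.04 in HSU_Sor and 3.94 to 4.09 in HSU, with a log2 difference of -0.07 ± 0.10 (SE).

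The close relation within this subfamily shows in the RefSeq promoters, each running from 250 bases before to 50 bases after the annotated start. The table held no entry for Mcpt10, Mcpt2 or Ms4a2. The promoters of Mcpt9 (chr15:33827180-33827479, plus strand, GRCr8) and Mcpt8 (chr15:33769399-33769698, plus strand, GRCr8) aligned over 292 bases, of which 283 (96.9%) were identical. They are shown to let the near-copies be compared, with capitals at the 9 aligned bases that differ.
Mcpt9: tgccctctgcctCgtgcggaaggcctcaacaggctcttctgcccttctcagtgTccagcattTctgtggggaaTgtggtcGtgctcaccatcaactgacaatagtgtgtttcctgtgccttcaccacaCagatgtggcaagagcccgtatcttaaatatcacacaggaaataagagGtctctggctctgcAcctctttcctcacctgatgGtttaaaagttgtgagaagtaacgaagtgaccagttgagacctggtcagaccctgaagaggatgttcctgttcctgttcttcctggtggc
Mcpt8: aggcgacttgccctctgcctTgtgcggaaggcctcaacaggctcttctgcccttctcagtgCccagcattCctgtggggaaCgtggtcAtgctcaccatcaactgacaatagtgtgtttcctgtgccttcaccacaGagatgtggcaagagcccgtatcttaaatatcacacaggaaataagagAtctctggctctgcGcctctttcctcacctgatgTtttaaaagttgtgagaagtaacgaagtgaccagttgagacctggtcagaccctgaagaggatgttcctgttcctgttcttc
The promoters of Mcpt8 and Cpa3, which encode unrelated enzymes, matched at 60.2% of aligned bases in the same procedure. Most of the aligned bases lie before the start, so the alignment compares neither transcripts nor array probes, and it does not cover Mcpt10. The shared probe set cannot give its signal to 1 gene. Signal given to 1 member of the subfamily may come from another, which was not tested.

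Cpa3 encodes carboxypeptidase A3, a granule enzyme that trims residues from the C-terminal end of peptides and is among the most mast cell-restricted transcripts. It was at 5.76, 5.83, 4.95 and 5.65 on the HSU_Sor arrays and at 6.14, 6.47 and 6.26 on the HSU arrays. The groups did not overlap, and HSU_Sor 3 lay well below its group. The mean was 5.55 ± 0.40 (SD, n = 4) in HSU_Sor and 6.29 ± 0.17 (SD, n = 3) in HSU, a log2 difference of -0.74 ± 0.22 (SE) with an unadjusted limma p of 0.0149 and an adjusted p of 0.756. The two-sided exact permutation test again gave its lower limit, p = 0.0571. Without HSU 2b the difference was -0.65 with an unadjusted limma p of 0.0555, and without HSU_Sor 3 it was -0.54 with an unadjusted limma p of 0.00268. Without HSU_Sor 3 and 4 together it was -0.50, and without HSU 1b and 2b it was -0.71 with an unadjusted limma p of 0.134.

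No member probe set was annotated to Mcpt2 alone. In the RefSeq gene table (GRCr8) the names rMCP-2 and rMCP-II are synonyms of Mcpt1. The names rMCP-1 and rMCP-I are synonyms of Mcpt1 too, and also of Mcpt1l1. Whether the Mcpt1 probe set stands for Mcpt2 was not tested. Mcpt1 is a chymase-type granule protease in the same gene cluster, with Mcpt1l1 between it and Mcpt10. The probe set of Mcpt1 read 4.73, 4.93, 4.23 and 4.39 on the HSU_Sor arrays and 5.46, 6.72 and 5.02 on the HSU arrays. Groups did not overlap, but the gap between HSU_Sor 2 and HSU 3b was small. The log2 difference was -1.16 ± 0.41 (SE), with an unadjusted limma p of 0.0279 and an adjusted p of 0.812. It rested in good part on HSU 2b, being -0.67 without that array, and it was -0.45 without HSU 1b and 2b together. The unadjusted limma p was 0.0691 without HSU_Sor 3 and 0.0639 without HSU_Sor 4.

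Mast cells express GATA factors, which bind GATA motifs in several mast cell gene promoters. The promoters were searched on both strands for AGATAA and TGATAA, which occurred in 18.9% of all 33469 RefSeq rat promoters of this length. Of the 7 listed genes with a promoter in the table, 3 held a match, Cpa3, Cma1 and Fcer1a, of which the last 2 were near the floor on these arrays. Cpa3 (chr2:104673188-104673487, minus strand, GRCr8) and Mcpt1 (chr15:33841356-33841655, plus strand, GRCr8) are shown because both transcripts were lower in HSU_Sor, with the match in capitals, beginning 55 and 105 bases before the start.
Cpa3: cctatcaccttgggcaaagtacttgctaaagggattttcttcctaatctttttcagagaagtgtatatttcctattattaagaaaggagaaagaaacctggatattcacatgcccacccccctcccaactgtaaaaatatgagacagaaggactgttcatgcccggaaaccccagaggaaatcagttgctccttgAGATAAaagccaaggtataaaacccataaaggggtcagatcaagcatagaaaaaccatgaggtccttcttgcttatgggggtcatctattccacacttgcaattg
Mcpt1: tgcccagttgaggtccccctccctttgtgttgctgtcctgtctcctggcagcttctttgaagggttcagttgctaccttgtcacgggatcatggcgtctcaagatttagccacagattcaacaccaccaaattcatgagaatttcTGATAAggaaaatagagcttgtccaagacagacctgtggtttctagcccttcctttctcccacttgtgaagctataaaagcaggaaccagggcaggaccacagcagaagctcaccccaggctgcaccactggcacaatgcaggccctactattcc
A match describes the letters only. The promoter of Mcpt1l1, whose probe set was below the filter, also held TGATAA, beginning 103 bases before the start. The promoters of Mcpt8 and Mcpt9 above held none. A link between a match and a difference was not tested.

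The chymase and tryptase members lay near the floor. Cma1, the alpha-chymase, was at 2.86 to 2.97 in HSU_Sor and 2.88 to 2.91 in HSU. The tryptase genes were as low, Tpsab1 at 1.94 to 1.98 in HSU_Sor and 1.95 to 1.99 in HSU, and Tpsb2 at 2.72 to 2.81 in HSU_Sor and 2.80 to 2.94 in HSU. These values overlapped between the groups and lay below the filter, so no difference of Cma1, Tpsab1 or Tpsb2 was detectable on these arrays. Of the remaining granule proteases of the cluster, Mcpt3 and Mcpt1l1 were also below the filter, and Mcpt4 was at 4.09 to 5.15 in HSU_Sor and 4.08 to 4.27 in HSU. Of 14 related protease genes listed, 6 had a probe set of their own, 3 were tested, and 1, Mcpt1, was lower at an unadjusted p below 0.05.

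Kit, the stem cell factor receptor, was above the filter in both groups. It was at 4.86, 5.52, 5.02 and 5.69 on the HSU_Sor arrays and at 5.09, 6.17 and 5.04 on the HSU arrays. The groups overlapped, and HSU 2b was the highest array. The log2 difference was -0.16 ± 0.34 (SE), with an adjusted limma p of 0.937, and it turned to 0.21 without HSU 2b and to 0.23 without HSU 1b and 2b. Lung Kit transcripts are not exclusive to mast cells. Its ligand Kitlg was bright, at 12.85 to 13.33 in HSU_Sor and 13.02 to 13.28 in HSU, with a log2 difference of -0.03 ± 0.12 (SE).

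The alpha chain of the IgE receptor, Fcer1a, which holds the IgE molecule, was at 2.70, 2.62, 2.61 and 2.66 on the HSU_Sor arrays and at 2.65, 3.68 and 2.70 on the HSU arrays. HSU 2b was the 1 array on which it exceeded the filter value. The beta chain, Ms4a2, which amplifies signalling, was also highest on HSU 2b at its brighter probe set, but stayed below the filter value there, with 3.51 on HSU 2b, 2.98 to 3.10 in HSU_Sor and 3.08 to 3.09 on the other HSU arrays. Its other probe set was at 2.96 to 3.00 in HSU_Sor and 2.97 to 3.01 in HSU. No member below the filter had groups that did not overlap. The gamma chain Fcer1g, which macrophages and other leukocytes share, was bright, at 13.05 to 13.39 in HSU_Sor and 12.57 to 13.22 in HSU. Of 10 genes of IgE receptor signalling listed, 7 were tested and 0 passed an unadjusted p below 0.05 in either direction. The largest differences were those of the kinase Syk (0.33 ± 0.19, SE) and of Fcer1g (0.21 ± 0.17, SE), and without HSU 2b these were 0.12 and 0.01.

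Hdc, which makes histamine from histidine, was flat at 6.45 to 6.50 in both groups, with a log2 difference of 0.00 ± 0.04 (SE). Its SD over the 7 arrays was 0.02, and 3.47% of tested probe sets had a smaller one, while probe sets below the filter had a median SD of 0.02. The Hdc probe set thus cleared the filter by its level but varied no more than probe sets at the floor, and whether that level reflects Hdc RNA was not tested. The enzyme that degrades extracellular histamine, Aoc1, was at 10.16, 10.82, 9.71 and 9.42 on the HSU_Sor arrays and at 11.14, 11.87 and 11.56 on the HSU arrays. Groups did not overlap, and the log2 difference was -1.49 ± 0.36 (SE), with an unadjusted limma p of 0.00485 and an adjusted p of 0.597. Without HSU 1b and 2b the unadjusted limma p of Aoc1 was 0.0535. The histamine receptors Hrh1, Hrh2, Hrh3 and Hrh4 and the intracellular degrading enzyme Hnmt were below the filter.

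Genes around mast cell function, apart from the proteases, showed few differences. Serglycin (Srgn), the proteoglycan core that holds granule proteases, was at 14.48 to 14.63 in HSU_Sor and 14.50 to 14.56 in HSU. The granule membrane tetraspanin Cd63 differed by -0.25 ± 0.11 (SE). The cytokine Il33, which activates mast cells, differed by 0.11 ± 0.06 (SE), and its receptor Il1rl1 was below the filter, as were the vesicular amine transporter Slc18a2 and the prostaglandin D synthase Hpgds. Among 6 lipid mediator enzymes, 4 were tested and 0 passed an unadjusted p below 0.05, with the cyclooxygenase Ptgs2 at 0.66 ± 0.30 (SE). Enpp3, the ectoenzyme known as CD203c on basophils and mast cells, was at 8.91, 9.44, 9.65 and 8.38 on the HSU_Sor arrays and at 9.79, 9.90 and 10.31 on the HSU arrays. Its groups did not overlap, with a log2 difference of -0.90 ± 0.32 (SE), an unadjusted limma p of 0.0283 and an adjusted p of 0.812. The unadjusted limma p of Enpp3 was 0.0581 without HSU 2b, 0.0966 without HSU 3b, 0.0658 without HSU_Sor 1 and 0.0831 without HSU 1b and 2b. Of 5 transcription factors listed, 4 were tested and 0 passed an unadjusted p below 0.05. Which cells of the lung gave the signals of Srgn, Cd63, Enpp3 and Aoc1 was not tested.

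HSU 2b was the highest array for 8 of the 10 member probe sets, all 4 tested members included, whereas 17.6% of all tested probe sets were highest there. The share was 51.0% over all 31042 probe sets, and the median of HSU 2b, 3.68, was the highest of the 7. For Hdc, Tpsab1 and the second Ms4a2 probe set the lead of HSU 2b was small, with 6.50, 1.99 and 3.01 there against 6.50, 1.98 and 3.00 on the next array. For Mcpt10, Kit and Fcer1a the next arrays were at 6.98, 5.69 and 2.70, well below 8.27, 6.17 and 3.68 on HSU 2b.

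**Figure D2:**
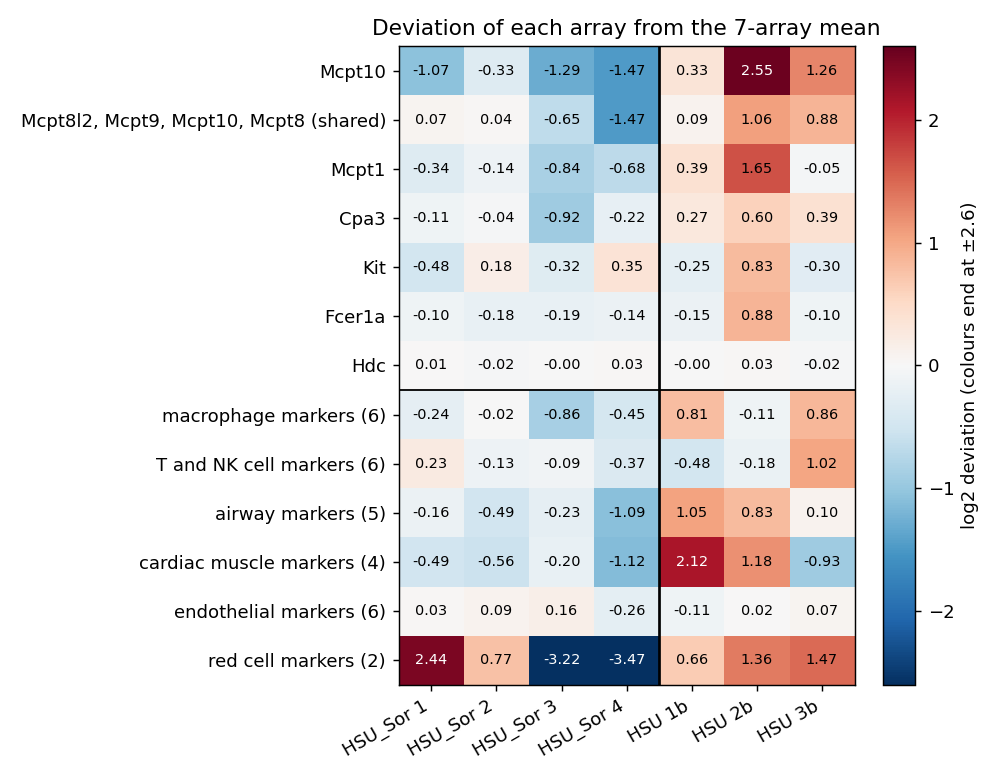
Log2 deviation of each array from the 7-array mean, HSU_Sor arrays on the left and HSU arrays on the right, for 6 single or shared mast cell probe sets and Mcpt1 (upper block) and for the mean over the tested genes of 6 marker lists (lower block, number of genes in brackets). HSU 2b is highest for Mcpt10 (2.55), Mcpt1 (1.65), Kit (0.83) and Fcer1a (0.88), while T and NK cell markers peak on HSU 3b (1.02) and cardiac markers on HSU 1b (2.12).

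Markers of other tissue components also differed between arrays. All 6 basophil and eosinophil markers with a probe set were below the filter, with summed linear signals of 30.4 to 31.6 in HSU_Sor and 30.9 to 31.8 in HSU. Of the 5 airway markers tested, 3 were lower in HSU_Sor at an unadjusted p below 0.05, Bpifa1 (-3.68 ± 1.16, SE), Scgb3a1 (-0.99 ± 0.30) and Muc5b (-1.12 ± 0.42), while Scgb1a1 (0.01 ± 0.05) and Foxj1 (0.03 ± 0.08) were not and Krt5 was near the floor. None passed after adjustment. Bpifa1 differed by -4.73 without HSU 3b and by -1.58 without HSU 1b and 2b (unadjusted limma p of 0.348). Without HSU 1b and 2b Scgb3a1 differed by -0.44 (unadjusted limma p of 0.337). Muc5b had an unadjusted limma p between 0.0648 and 0.0929 with any 1 array left out except HSU_Sor 3, without which it differed by -1.51. The summed airway signal was 62229 to 69599 in HSU_Sor and 69937 to 84565 in HSU, so the groups nearly met. Scgb1a1, by far the brightest airway marker at 15.82 to 15.97 in HSU_Sor and 15.85 to 15.91 in HSU, made up most of this sum. The mean airway deviation was 1.05, 0.83 and 0.10 on HSU 1b, 2b and 3b, where Mcpt10 deviated by 0.33, 2.55 and 1.26. Of the 6 macrophage markers tested, the complement chains C1qa, C1qb and C1qc were lower in HSU_Sor at an unadjusted p below 0.05. The differences of the other 3, Cd68 (0.39 ± 0.51, SE), Csf1r (0.17 ± 0.12) and Mrc1 (0.01 ± 0.34), were above 0 and did not pass. The unadjusted limma p of C1qb was 0.0525 without HSU 1b and 0.0586 without HSU 3b, and the macrophage list's summed signal overlapped, at 10807 to 13680 in HSU_Sor and 11582 to 19590 in HSU. Cardiac muscle markers were high on HSU 1b and 2b and low on HSU 3b, with summed signals of 551 to 1684 in HSU_Sor and 692 to 4621 in HSU. All 4 tested cardiac markers were lower in HSU_Sor. Of these only Mb (-2.38 ± 0.94, SE) had an unadjusted limma p below 0.05, and its groups overlapped. Of 6 endothelial markers tested, 1 was higher in HSU_Sor at an unadjusted p below 0.05, Vwf (0.411 ± 0.085, SE, groups without overlap). Of 8 lung identity markers tested, 1 was likewise higher, Aqp5 (0.29 ± 0.07, SE, groups without overlap). Mb, Vwf and Aqp5 did not pass after adjustment. Red cell markers were low on HSU_Sor 3 and 4, without which Mcpt10 differed by -2.08. T and NK cell markers had 0 of 6 past an unadjusted p below 0.05, with summed signals of 791 to 1414 in HSU_Sor and 753 to 2771 in HSU. The part of these components in the protease result was not tested.

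The genes most alike in pattern to the 4 tested members were named by Pearson correlation with the members' mean deviation over the 7 arrays, among 9295 genes. They were the Kazal-type protease inhibitor Spink8 (r = 0.975), the monocyte chemokine Ccl2 (0.966), the junctional adhesion molecule Jam3 (0.947), Mcpt1 (0.937), Pdcd5 (0.934) and the guanine nucleotide exchange factor Arhgef11 (0.929). With 7 arrays these values are a description only, and the arrays share their group difference. The members' deviations were averaged without scaling, so Mcpt10 (SD over the 7 arrays 1.49) weighed more than Cpa3 (0.50) and Kit (0.47). Hdc (0.02) added almost nothing. Spink8 was at 7.34, 7.58, 7.14 and 7.54 on the HSU_Sor arrays and at 7.98, 8.62 and 8.26 on the HSU arrays, without overlap. Ccl2 overlapped at its edge, with 2.35 to 4.07 in HSU_Sor and 4.06 to 6.81 in HSU, and both Ccl2 and Spink8 were highest on HSU 2b.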

How the data were processed

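Total lung RNA was hybridised as biotin-labelled cRNA to 7 Affymetrix rat arrays, per the labels' protocols. Each probe set has a log2 value, normalized across arrays by the authors. RMA and GCRMA are named per the submitters' processing notes, and which of them made the values is not stated in those notes. The 57 control probe sets were left out, leaving 31042, of which 20826 had 1 gene symbol in the platform annotation, 436 several and 9780 none. A match by gene identifier to the RefSeq gene table (GRCr8) covered 20764 probe sets and altered 0 symbols.

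HSU_Sor minus HSU was fitted with limma (version 3.58.1, R version 4.3.3) to these values, as a two-sided test without covariates, over the 15521 probe sets whose mean exceeded the median of all means (3.64), adjusting p by Benjamini-Hochberg with 0.05 as the threshold. The script was tested on simulated data. Summed signals are sums of 2 to the power of the log2 values. A listed gene with several probe sets was read at the one of highest mean.

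Named genes were all members, up to 3 genes per list with the smallest p, any gene of the granule protease and IgE receptor lists, and the 6 most alike. Sftpc and RT1-Bb were named as checks of the arrays. The remaining tested airway and macrophage markers were named for completeness. Members below the filter and Il1rl1, Slc18a2, Hpgds, Krt5 and the histamine receptors were named as not testable. The members and lists were chosen with earlier results of these data known. Alternatives were other filters, scalings, variance models, array weights, a replicate block, averaged probe sets and arrays left out. Arrays were not treated as paired by replicate number. Deviations of same-numbered arrays correlated at -0.06, 0.18 and 0.14, and those of arrays with different numbers at -0.17 to 0.24. These few values cannot show whether the numbers pair the arrays. The number of arrays limits the precision.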

Additional observations from a re-analysis of the deposited data

Results flagged for a closer look

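In 4 probe sets 1 of the 4 HSU_Sor arrays lay far from the other 3 by Dixon's test, where chance flags about 1 group in 20 and 38 probe sets were examined. Mcpt4 was at 5.15 on HSU_Sor 1. Mcpt1l1, near the floor, was at 3.29 on HSU_Sor 3. Muc5b was at 10.56 on HSU_Sor 3, the level of the HSU arrays. Arhgef11 was at 7.50 on HSU_Sor 3 and at 7.52 on the other HSU_Sor arrays. No member probe set was set apart in this way.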

How the results depend on the processing

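No member passed an adjusted p below 0.05 in either direction under any alternative run. The 2 members lower at an unadjusted p below 0.05 were 0 when probe sets below the 75th percentile were removed, since no member then remained to be tested, and 1 without HSU 1b and 2b; leaving out each array in turn gave 1 to 2. Over all probe sets the count past the adjusted threshold was 0, but 6 above the 75th percentile, 10 without HSU 1b and 2b, and 0 to 6 with each array left out, 6 without HSU 3b. The replicate block leaves HSU_Sor 4, whose number no HSU array shares, without weight, so its differences equal those without HSU_Sor 4. With it Mcpt10 differed by -2.28 and Cpa3 by -0.78, and the block altered no count of members called; the shared protease probe set was at -0.86 both ways, with an unadjusted limma p of 0.0702 in the block and 0.0448 without HSU_Sor 4. Mcpt10 ranged from -2.95 without HSU replicate 1b to -1.84 without HSU replicate 2b, and Cpa3 from -0.83 to -0.54.

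Signs turned for 7 tested genes, and also between values close to 0 for Cma1, Tpsab1, the second Ms4a2 probe set, Mcpt3 and Mcpt8 below the filter. The cause was not tested. With each array left out, Kit lay between -0.358 and 0.21, Hdc between -0.013 and 0.009, Mcpt4 between -0.022 and 0.333, Mcpt9 between -0.11 and 0.007 and Kitlg between -0.107 and 0.053. Without HSU 1b and 2b, which leaves 1 HSU array assumed to vary like HSU_Sor, Kit was at 0.235, Hdc at 0.019, Mcpt9 at 0.008 and Il33 at -0.01. Hdc was at 0.014 with median centring, Kitlg at 0.014 with quantile normalization and Srgn at -0.024 without HSU_Sor 3 and 4. Signal near background limits what can be read for Cma1, Tpsab1, Tpsb2, Fcer1a and Ms4a2.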
